A study of Mus musculus with 6 samples.

Results

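The transcripts of 6 proprotein convertases, Furin, Pcsk4, Pcsk5, Pcsk6, Pcsk7 and Mbtps1, were examined in livers of mice with and without Igfbp7. The members were picked by gene symbol from count tables that list 22609 genes, and all 6 passed the filter on low counts, as did 12522 genes in all. The choice of these genes used the comparison of the genotypes, with Pcsk4 among the genes called higher in the knockout, so the difference between genotypes in these 6 genes is given as a description and not as a test. Both groups were adult livers of C57BL/6 mice, 3 libraries of wild type and 3 of IGFBP7 knock-out, with a knockout allele built by Cre-loxP recombination in a pure background. The tissue in which Cre acted, and the sex, age and collection time of the mice, are not stated. No label says that the 3 libraries of a genotype came from separate animals, so the errors and p-values measure only the spread between these libraries, which may be technical.

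Proprotein convertases are serine proteases of the secretory pathway that cut precursor proteins after basic residues and so turn inactive hormones, growth factors, receptors and proteases into their active forms. In the liver they mature blood clotting factors, the insulin receptor and the iron hormone hepcidin, and they cut or inactivate lipases at the vessel wall. Mbtps1, also called site-1 protease, belongs to the same subtilisin-like superfamily but cuts after non-basic residues, and releases membrane-bound transcription factors such as the SREBPs and ATF6 in the Golgi.

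Gene counts per library ran from 16712568 to 22419411. Igfbp7 had 1055 to 1705 counts in the wild type libraries and 2 to 9 in the knockout libraries, so the labels matched the targeted gene. Levels are given as CPM, the counts of a gene scaled to a common library size (TMM). The 10 hepatocyte markers summed to 92940 to 112900 CPM in the wild type libraries and 105200 to 125500 CPM in knockout libraries. Most of these sums was Alb alone, at 61050 to 78720 CPM and 65380 to 85470 CPM. Of the 10 markers, edgeR called 0 and DESeq2 called 1, higher in the knockout. With an unadjusted p under 0.05 by edgeR there was 1, also higher. Over all tested genes, edgeR called 0.216%, and DESeq2 called 3.41% of its genes. At an unadjusted p under 0.05, 8.1% of all tested genes were higher and 7.35% lower. Wild type replicate 1 stood apart in the clock genes, with Arntl at 17.6 CPM where the other 5 held 1.91 to 2.85 CPM, and Dbp at 10.2 CPM where they held 51.0 to 78.8 CPM. Markers of Kupffer cells and macrophages had lower mean levels in the knockout for 11 of 11 genes, with 0 called by edgeR, 9 by DESeq2 and 11 with an unadjusted p under 0.05. Their summed level was 684 to 771 CPM in the wild type libraries and 361 to 566 CPM in knockout libraries. Lymphocyte markers summed to 6.83 to 7.87 CPM in the wild type and 3.58 to 4.45 CPM in the knockout, with 3 of the 6 tested lower with an unadjusted p under 0.05 and 0 called by edgeR or DESeq2. Cholangiocyte markers summed to 79.0 to 106 CPM and 50.8 to 61.3 CPM, with 0 called by edgeR and 1, lower in the knockout, by DESeq2. Nearly all of the difference in sums was Spp1, which other cells also make, at 85.1 CPM and 48.1 CPM (edgeR adjusted p = 0.0596). The other 5 tested cholangiocyte markers overlapped between genotypes. The summed markers of endothelial cells (515 to 542 CPM and 483 to 579 CPM) and stellate cells (452 to 564 CPM and 407 to 541 CPM) overlapped between genotypes. Of the 10 endothelial markers, 2 were higher and 1 lower in the knockout without overlap, where 10.7% and 10.1% of all tested genes stood. In that list 1 gene was lower with an unadjusted p under 0.05, and 0 in the stellate list. Neither edgeR nor DESeq2 called a gene of these 2 lists. In bulk tissue, fewer cells of a type and less RNA per cell cannot be told apart.

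The stretch around the catalytic serine is conserved among subtilisin-like proteases, and it is shown because similar stretches could mix the reads of related genes. The coding strand is shown for 45 bases of the longest coding transcript in GENCODE release M21 (GRCm38), 5′ to 3′, with the codon of the catalytic serine in capitals.
Furin: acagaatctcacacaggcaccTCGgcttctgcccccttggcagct
Pcsk4: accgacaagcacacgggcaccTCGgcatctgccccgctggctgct
Pcsk5: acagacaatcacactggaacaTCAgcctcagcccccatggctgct
Pcsk6: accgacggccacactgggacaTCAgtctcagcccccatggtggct
Pcsk7: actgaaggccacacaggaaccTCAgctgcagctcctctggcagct
Mbtps1: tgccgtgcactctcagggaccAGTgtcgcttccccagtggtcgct
Within these 45 bases, Pcsk4 shared 35 with Furin, 35 with Pcsk5, 31 with Pcsk6, 31 with Pcsk7 and 22 with Mbtps1. Over the whole coding sequence, the longest run of identical bases between Pcsk4 and another member was 24, with Furin, and it was 11 to 18 with the other 4. Of the 3190 different 50-base windows in annotated Pcsk4 transcripts, 0 occurred on either strand in a transcript of another gene. In Pcsk7, 7.89% of such windows were shared, with 2 other genes, and in the remaining members 0.0486% to 2.05% were shared. No read length is stated.

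Pcsk4, the convertase known from male germ cells and needed for normal sperm function, was about 3 times as abundant in the knockout livers. Wild type replicates 1 to 3 held 155, 223 and 218 Pcsk4 counts, or 8.24, 10.4 and 12.6 CPM. Knockout replicates 1 to 3 held 545, 767 and 561 counts, or 25.8, 41.9 and 27.5 CPM. The groups did not overlap, and the lowest knockout library stood above the highest wild type library by more than the whole range of the wild type libraries. Knockout replicate 2 was the highest of the 6. The means were 10.4 ± 2.2 and 31.7 ± 8.8 CPM (SD, n = 3 each), a fold of 3.05 and a log2 fold change of 1.61 ± 0.22 (SE). The 95% interval of the fold was 2.16 to 4.29, and 0.431% of tested genes had a larger log2 fold change in either direction.

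**Figure D1:**
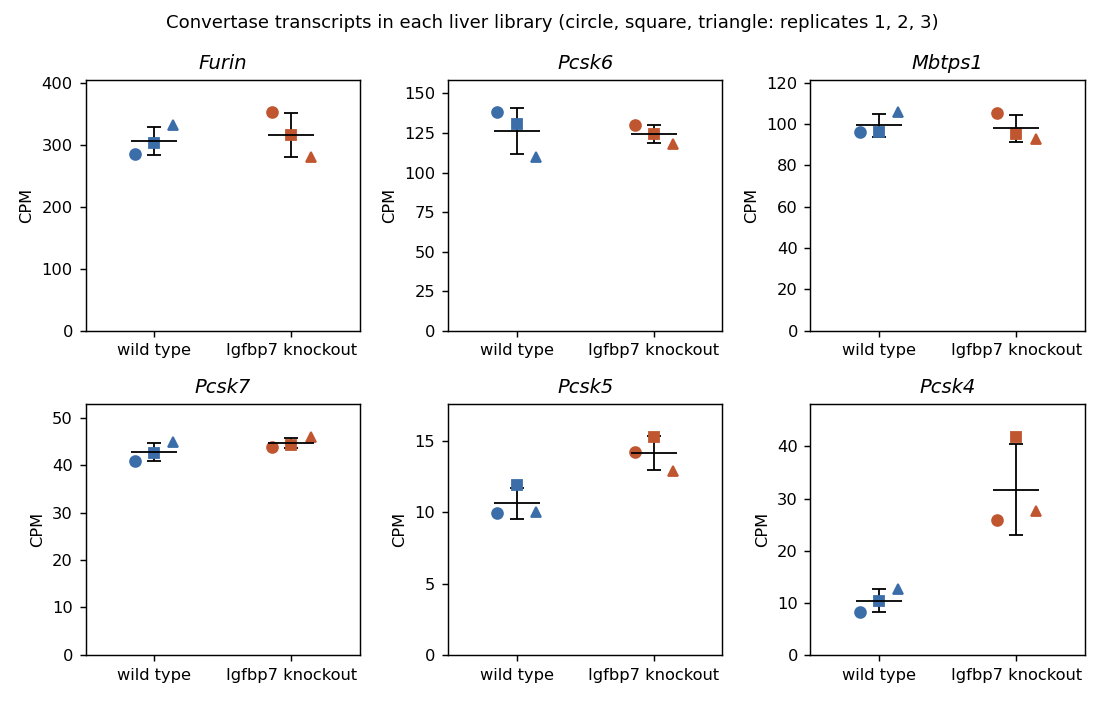
CPM (vertical axis, from 0) of each of the 6 convertases in wild type (blue) and Igfbp7 knockout (orange) liver libraries, with replicate 1 as a circle, 2 as a square and 3 as a triangle, and the mean and SD in black. Pcsk4 spans 8.24 to 12.6 CPM in the wild type libraries and 25.8 to 41.9 CPM in knockout libraries, and in Furin, Pcsk6, Pcsk7 and Mbtps1 the groups overlap.

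Because this difference is what brought Pcsk4 to notice, it supports nothing by itself. Pcsk4 was the only one of the 6 members that edgeR's quasi-likelihood test called at an adjusted p under 0.05, where 0.216% of all tested genes were called (0.128% higher and 0.0878% lower). The call was lost without wild type replicate 1 (log2 fold change 1.46), wild type replicate 2 (1.60), knockout replicate 2 (1.36) or knockout replicate 3 (1.70). DESeq2, which called 3.41% of its genes, also called Pcsk4 and no other member. With wild type replicate 1 and knockout replicate 2 both left out, the value was 1.22, still higher but below the call.

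The male germ cell genes that accompany Pcsk4 in testis were close to absent. Of the 15 listed markers, 8 were at 0 in all libraries, Prm2, Tnp1 and Akap4 included, and none exceeded 4 counts in a library. Prm1, the sperm protamine, had 1 count in knockout replicate 3 and 0 in the others. None passed the filter, and their summed level was 0.0532 to 0.346 CPM in the wild type and 0.237 to 0.393 CPM in the knockout libraries.

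Pcsk4 lies between 2 protein-coding genes that are expressed in these livers and has no overlapping gene in the RefSeq table of GRCm38.p6. Its start lies next to that of Reep6, a gene for a membrane-shaping protein of the endoplasmic reticulum, which is read from the opposite strand. Reep6 had 11435, 13281 and 8280 counts in replicates 1 to 3 of the wild type and 12919, 12475 and 10690 counts in replicates 1 to 3 of the knockout. The groups overlapped, at 569 ± 79 CPM in the wild type libraries and 606 ± 78 CPM in knockout libraries (SD, n = 3 each), with a log2 fold change of 0.09 ± 0.14 (SE, edgeR adjusted p = 0.819) that was -0.02 without wild type replicate 3. For every 100 Reep6 counts there were 1.36, 1.68 and 2.63 Pcsk4 counts in wild type libraries and 4.22, 6.15 and 5.25 Pcsk4 counts in replicates 1 to 3 of the knockout. The ratio was higher in each knockout library than in each wild type library. With Reep6 nearly level, this repeats the Pcsk4 difference that entered the choice of genes and adds no support to it. On the other side, 2310011J03Rik stood at 17.7 ± 0.7 CPM in the wild type libraries and 17.0 ± 3.2 CPM in knockout libraries (SD, n = 3 each), with a log2 fold change of -0.06 ± 0.14 (SE, edgeR adjusted p = 0.884) that was 0.04 without knockout replicate 1. The strand setting of the counting is unknown, and how reads at the borders of these genes were assigned was not tested.

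Pcsk5, which matures growth factors such as Gdf11, was the second member whose groups did not overlap. Wild type replicates 1 to 3 stood at 9.94, 11.9 and 10.04 CPM from 187, 254 and 174 counts. Knockout replicates 1 to 3 stood at 14.2, 15.3 and 12.9 CPM from 300, 280 and 263 counts. The difference was far smaller than in Pcsk4, a fold of 1.33 with a 95% interval of 1.09 to 1.62, and edgeR did not call it. The log2 fold change was between 0.30 and 0.50 in each of 16 alternative analyses, none of which called it. A lack of overlap held for 20.7% of all tested genes, 10.7% with the knockout higher, beside 2 of the 6 members.

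Furin, the broadly expressed convertase of the trans-Golgi network, was nearly level between the genotypes. It stood at 286, 302 and 331 CPM in wild type replicates 1 to 3 and at 352, 316 and 281 CPM in replicates 1 to 3 of the knockout. Knockout replicate 1 was the highest library and knockout replicate 3 the lowest, so the groups overlapped. The fold was 1.03 with a 95% interval of 0.863 to 1.24.

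Pcsk6, also called PACE4, is secreted and held in the matrix by heparan sulfate. Its levels were 138, 131 and 110 CPM in the wild type libraries and 130, 125 and 118 CPM in replicates 1 to 3 of the knockout. The knockout libraries all lay within the wild type range. The fold was 0.985, with a 95% interval of 0.835 to 1.16.

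Pcsk7 is the membrane-bound convertase known to shed the transferrin receptor. It varied least, at 40.9, 42.6 and 44.9 CPM in the wild type libraries and 43.9, 44.3 and 46.0 CPM in replicates 1 to 3 of the knockout. Its coefficient of variation was 4.60% in wild type libraries and 2.46% in knockout libraries, against 20.8% and 27.8% for Pcsk4. The fold was 1.045 with a 95% interval of 0.913 to 1.20. Rnf214 and Tagln overlap Pcsk7 in the RefSeq table, so the gene that a read from a shared stretch went to is uncertain. Rnf214 was at a log2 fold change of 0.14 ± 0.10 (SE, edgeR adjusted p = 0.567), and Tagln, a smooth muscle actin-binding protein, at -0.41 ± 0.17 (SE, edgeR adjusted p = 0.287).

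Mbtps1 stood at 96.3, 96.0 and 106 CPM in the wild type libraries and 105, 95.4 and 92.9 CPM in replicates 1 to 3 of the knockout. Its groups overlapped, and the fold was 0.986 with a 95% interval of 0.858 to 1.13. For Furin, Pcsk6, Pcsk7 and Mbtps1 the intervals thus reach at most 1.24 upward and 0.835 downward.

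**Figure D2:**
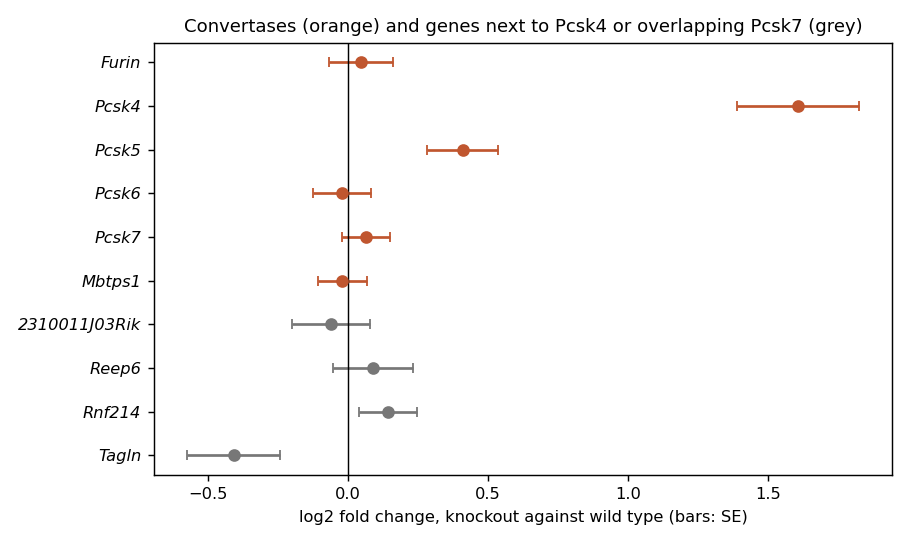
Log2 fold change of knockout against wild type (horizontal axis, points with SE bars) for the 6 convertases in orange and, in grey, the genes on either side of Pcsk4 and those overlapping Pcsk7. Pcsk4 lies at 1.61 and Pcsk5 at 0.41, while Reep6 at 0.09 and 2310011J03Rik at -0.06 have SE bars that cross 0.

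To compare members with each other, CPM was divided by the exon length of each gene's protein-coding transcripts. On that scale Furin made up the largest part of the 6 in both genotypes, at 64.7 ± 4.9 CPM per kb in wild type libraries and 66.8 ± 7.6 CPM per kb in knockout libraries (SD, n = 3 each). Pcsk6 followed at 28.4 and 28.0 CPM per kb, and Mbtps1 at 22.9 and 22.5 CPM per kb. In wild type libraries the lowest Pcsk6 value, 24.7 CPM per kb, was only just above the highest Mbtps1 value, 24.3 CPM per kb.

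Among the less abundant members, Pcsk4 lay clearly below Pcsk7 in the wild type and overlapped with it in the knockout. In wild type libraries Pcsk7 stood below Mbtps1 at 10.3 ± 0.5 CPM per kb, Pcsk4 next at 4.10 ± 0.86 CPM per kb and Pcsk5 last at 1.08 ± 0.11 CPM per kb (SD, n = 3 each), with no overlap between neighbours. In knockout libraries Pcsk4 reached 12.5 ± 3.5 CPM per kb (SD, n = 3), and its lowest library, 10.2 CPM per kb, fell below the highest Pcsk7 library, 11.1 CPM per kb. Those neighbours were therefore not separated. The Pcsk4 share of the summed level was 2.54%, 3.14% and 3.65% in wild type libraries and 6.77%, 11.3% and 8.31% in replicates 1 to 3 of the knockout. The summed level of the 6 genes was 128 to 136 CPM per kb in wild type libraries and 131 to 150 CPM per kb in knockout libraries, which overlapped. With coding length in place of exon length the Pcsk4 share was 2.30% and 6.60% on average, and Pcsk4 ranked below Pcsk7 and above Pcsk5 in both genotypes. The gene models the authors counted on are unknown, so these lengths are approximate.

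**Figure D3:**
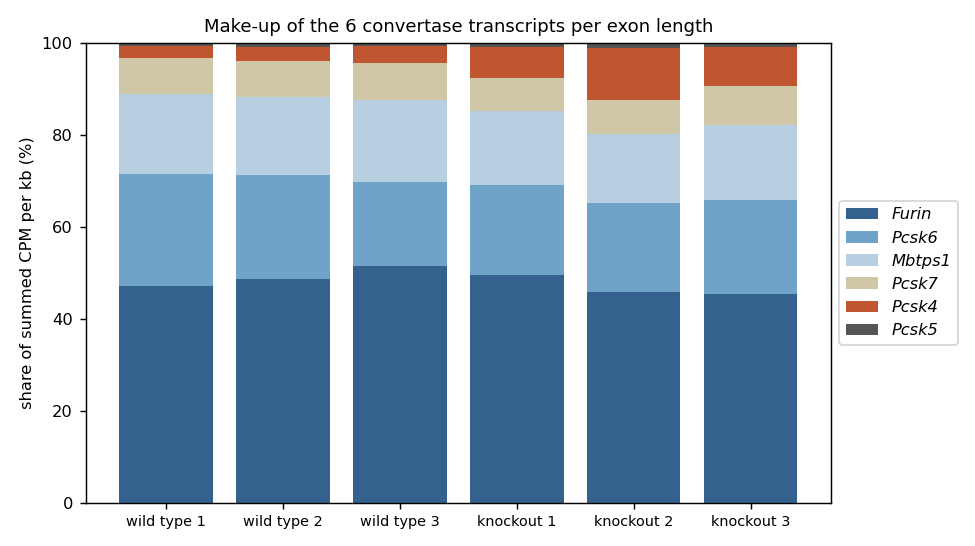
Share (percent, vertical axis) of each member in the summed CPM per kb of exon for the 6 convertases, 1 bar per library. The orange Pcsk4 segment takes 2.54% to 3.65% in wild type libraries and 6.77% to 11.3% in knockout bars, and Furin takes 45.4% to 51.5% in all 6.

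Pcsk1 and Pcsk2, the convertases of neuroendocrine secretory granules, had a count of 0 in all 6 libraries. Of the 6 genes listed as inhibitors or partners of convertases, 4 were tested and edgeR called 0, with 2 lower with an unadjusted p under 0.05 and 1 by DESeq2. Their median log2 fold change was -0.32. Gbp2 and Gbp5, interferon-inducible GTPases known to hold back furin activity, had the lowest p-values of the list. Gbp2 stood at 7.18, 10.8 and 6.29 CPM in the wild type libraries and 4.12, 4.80 and 4.17 CPM in replicates 1 to 3 of the knockout, without overlap. Its log2 fold change was -0.89 ± 0.22 (SE, edgeR adjusted p = 0.121), and DESeq2 called it (adjusted p = 0.0144), with adjusted p from 0.0144 to 0.348 over 16 alternatives. Gbp5 was at -0.61 ± 0.25 (SE, edgeR adjusted p = 0.287). The same libraries held less of the summed Kupffer cell and macrophage markers (361 to 566 CPM against 684 to 771 CPM), and their part in the Gbp2 and Gbp5 values was not tested. Both belong to a family of similar copies, so their counts are uncertain. Serpinb8, a serpin that inhibits furin, stood at 2.58 CPM in the wild type libraries and 2.55 CPM in knockout libraries. The file symbol 2410131K14Rik stands for Spring1, a partner needed to mature site-1 protease, and was at 6.48 CPM in the wild type libraries and 7.87 CPM in knockout libraries. Pcsk1n and Scg5, the inhibitor and chaperone of the granule convertases, did not pass the filter.

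The proteins that convertases act on were followed through lists chosen by function. Across the 92 listed substrates and partners in the files, 80 were tested and edgeR called 1, or 1.25%, against 0.216% of all genes. That share rests on 1 gene, and the lists were chosen with earlier results of these data known, so it shows no excess. At an unadjusted p under 0.05 there were 5 higher and 11 lower, where 8.1% and 7.35% of all genes stood. The median log2 fold change was 0.0006 over the 80 and 0.0013 over all genes tested.

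The called gene was Lpl, the lipoprotein lipase of vessel walls, which convertases cut and inactivate. Lpl fell from 44.3, 42.7 and 39.5 CPM in wild type to 22.1, 21.0 and 23.7 CPM in replicates 1 to 3 of the knockout. Its groups did not overlap, and the log2 fold change was -0.92 ± 0.10 (SE, edgeR adjusted p = 0.0233). The call was lost without wild type replicate 1 (-0.89), wild type replicate 2 (-0.92) or knockout replicate 2 (-0.88), and with wild type replicate 1 and knockout replicate 2 both left out (-0.85). Lpl was called in 11 of 16 alternative analyses. Summed Kupffer cell and macrophage markers were also lower in the knockout libraries (361 to 566 CPM against 684 to 771 CPM). Their part in the Lpl value was not tested. Lipg, the endothelial lipase that convertases also cut, was chosen after its values were seen, because it stood on the other side. It was at 21.9, 26.3 and 26.4 CPM in the wild type libraries and 42.1, 44.1 and 75.6 CPM in replicates 1 to 3 of the knockout, with a log2 fold change of 1.12 ± 0.22 (SE, edgeR adjusted p = 0.0801). The 20 tested plasma protein substrates had a median log2 fold change of 0.06, with 12 higher and 8 lower. Groups did not overlap for 2 of the higher and 2 of the lower genes, where 10.7% and 10.1% of all tested genes stood.

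Among cell surface enzymes and receptors, edgeR called 0 of 20 tested and DESeq2 called 1, where 1 higher and 3 lower genes had an unadjusted p under 0.05, and the median log2 fold change was -0.07. Adamts13, the protease that trims von Willebrand factor and carries a propeptide removed by furin, came closest. It stood at 5.95, 5.05 and 5.14 CPM in the wild type libraries and 8.95, 10.1 and 10.6 CPM in replicates 1 to 3 of the knockout, without overlap. The log2 fold change was 0.87 ± 0.14 (SE, edgeR adjusted p = 0.0587), and DESeq2 called it (adjusted p = 0.000452), as did edgeR with robust estimation (adjusted p = 0.0424) or without the filter (adjusted p = 0.0273), while over 16 alternatives the adjusted p ran from 0.000452 to 0.257. Mmp15, a membrane-bound matrix metalloproteinase, was at -0.36 ± 0.14 (SE, edgeR adjusted p = 0.282). Of the 20, 1 higher and 3 lower genes did not overlap, where 10.7% and 10.1% of all tested genes stood.

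Of 23 tested growth factors and receptors, edgeR and DESeq2 each called 0, where 2 higher and 2 lower genes had an unadjusted p under 0.05, and the median log2 fold change was 0.06. Insr, whose receptor precursor furin splits, stood at 161, 173 and 189 CPM in the wild type libraries and 211, 228 and 201 CPM in replicates 1 to 3 of the knockout. The groups did not overlap, and its log2 fold change was 0.29 ± 0.10 (SE, edgeR adjusted p = 0.208). Of the 23, 3 higher and 2 lower genes did not overlap, where 10.7% and 10.1% of all tested genes stood. Tgfb1, whose latent precursor furin cuts, was at -0.53 ± 0.18 (SE, edgeR adjusted p = 0.226), also without overlap. The part of the lower Kupffer cell and macrophage markers in the Tgfb1 value was not tested. Igf1, the growth factor that liver supplies to blood and that convertases trim, was at 760 CPM in the wild type libraries and 845 CPM in knockout libraries. Igf2 (1 to 12 counts per library) and Adcyap1 (0 in all libraries), on the same list, did not pass the filter. This list was not split by convertase.

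The targets and helpers of Mbtps1 showed no called gene either. Of 9 tested site-1 protease substrates, edgeR and DESeq2 called 0, with 1 lower with an unadjusted p under 0.05, and the median log2 fold change was 0.03. That gene was Creb3l1, a membrane-bound transcription factor, at 1.40 CPM in the wild type libraries and 0.892 CPM in knockout libraries, with a log2 fold change of -0.66 ± 0.28 (SE, edgeR adjusted p = 0.318). Atf6b, a relative of ATF6, was at -0.18 ± 0.12 (SE, edgeR adjusted p = 0.511). Of the 4 genes that work beside Mbtps1 (Mbtps2, Scap, Insig1 and Insig2), edgeR and DESeq2 called 0, with 1 lower with an unadjusted p under 0.05. Insig2, which holds SREBPs in the endoplasmic reticulum, was at 441, 230 and 146 CPM in the wild type libraries and 167, 148 and 85.1 CPM in replicates 1 to 3 of the knockout. Wild type replicate 1, the library that stood apart in the clock genes, was the highest, and the groups overlapped (log2 fold change -1.03 ± 0.38 (SE), edgeR adjusted p = 0.252, and -0.50 with wild type replicate 1 left out). Scap, the escort of SREBPs, was at 0.06 ± 0.16 (SE, edgeR adjusted p = 0.904), and at -0.10 without knockout replicate 1.

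**Figure D4:**
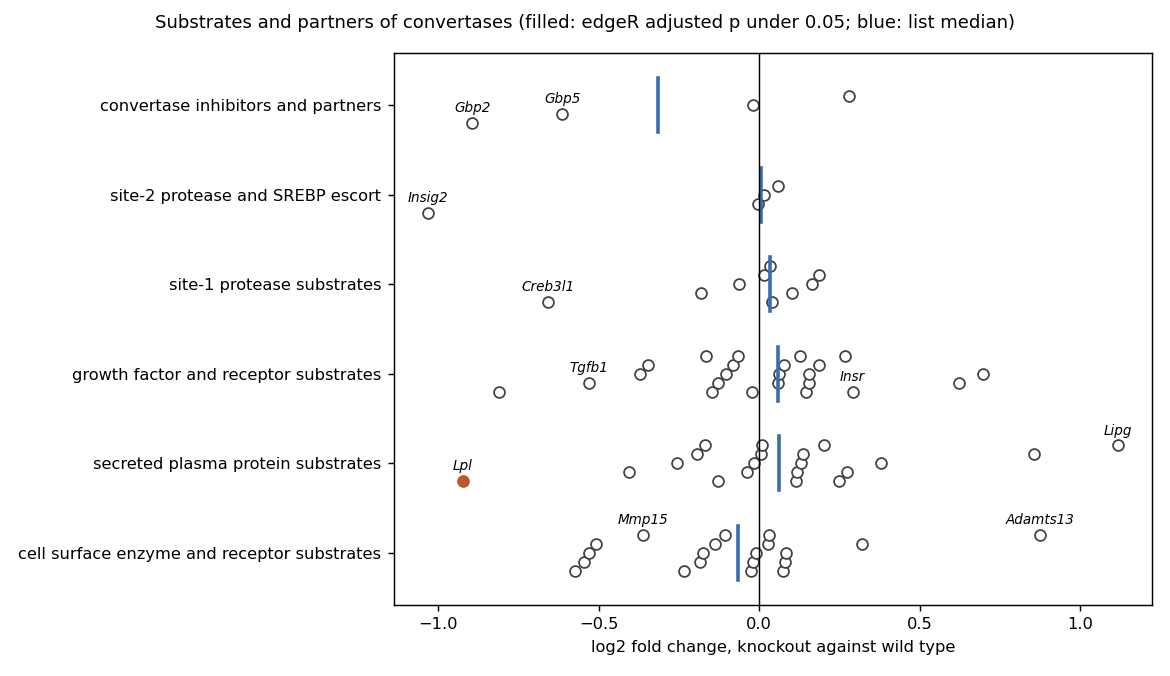
Log2 fold change of knockout against wild type (horizontal axis) for each tested gene of 6 lists of convertase partners and substrates, 1 point per gene, filled where edgeR's adjusted p was under 0.05, with the list median in blue. Lpl at -0.92 is the 1 filled point, and Adamts13 at 0.87 and Lipg at 1.12 lie farthest to the other side in their lists.

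For each member, the tested genes of at least 1 CPM whose log2 CPM ran most closely with it over the 6 libraries were listed as a description. Those nearest to Pcsk4 were D4Wsu53e, also called Rsrp1 (Pearson r = 0.995), Dffa (0.991), the inhibitor of the caspase-activated DNase, and Cisd2 (0.989), an iron-sulfur protein. They followed the order of the libraries but moved less, at log2 fold changes of 0.45, 0.35 and 0.24 beside 1.61 in Pcsk4. By edgeR 0 of the 3 were called, and all 3 had an unadjusted p under 0.05. Because they were picked for following Pcsk4, whose groups did not overlap, that difference between genotypes came with the choice and supports nothing. Those nearest to Pcsk5 were Ces1b (0.994), a carboxylesterase, Cpt1a (0.992), which brings fatty acids into mitochondria, and 2900010M23Rik (0.990). Furin ran with Edc3 (0.985), C77080 (0.977) and Angptl4 (0.976). Pcsk6 ran with Suox (0.987), Hsbp1 (0.987) and 0610009B22Rik (0.978). Pcsk7 ran with Hsf2 (0.996), Fgfr1op2 (0.994) and 1600002H07Rik (0.991), and Mbtps1 with Ankrd52 (0.994), Cyp2d11 (0.988) and Rundc1 (0.979). With 6 libraries, these are the highest values among all tested genes of at least 1 CPM, and all points share the depth and scaling of their library.

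Pcsk4 was called in 10 of 16 alternative analyses. Its log2 fold change was 1.56 to 1.61 in every alternative that kept all 6 libraries. With 1 library left out it ran from 1.36 to 1.76. Pcsk4 was higher in the knockout libraries in all 16 alternatives, and Pcsk5 and Pcsk7 were too, at log2 fold changes of 0.30 to 0.50 and 0.02 to 0.10. Furin, Pcsk6 and Mbtps1 took both signs, within -0.11 and 0.13.

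**Figure D5:**
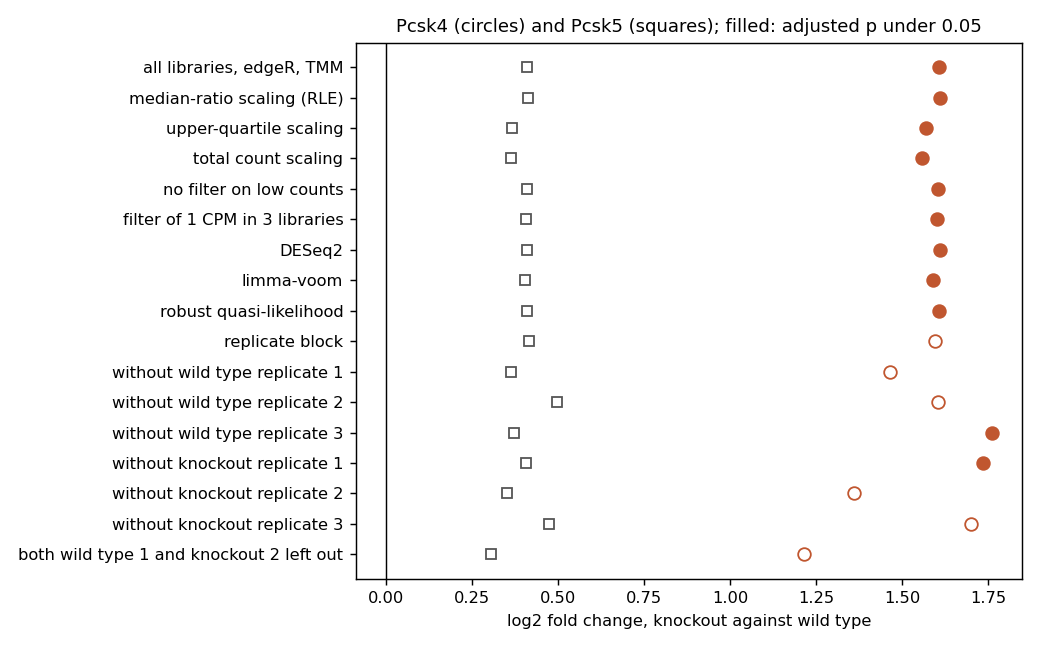
Log2 fold change (horizontal axis) of Pcsk4 (circles) and Pcsk5 (squares) under each analysis setting (rows), filled where the adjusted p was under 0.05. Pcsk4 runs from 1.22 with wild type replicate 1 and knockout replicate 2 both left out to 1.76 without wild type replicate 3, and no Pcsk5 square is filled.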

How the data were processed

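The deposited values are whole-number read counts per gene symbol, 1 file per liver library, not normalized. HTSeq, TopHat2 2.0.8b and CASAVA 1.8.2 are listed per the submitters' processing notes, as are builds hg19 and mm9. The annotation and strand setting were not given in the sources used here. The 5 closing rows that name no gene were left out (reads outside genes were 9.65% to 12.5% of uniquely placed reads, ambiguous reads 0.594% to 0.662%). Genes were kept by filterByExpr (minimum count 10), scaled by TMM and tested in edgeR 4.0.16 (R 4.3.3) with a quasi-likelihood model, genotype as the only term, 2-sided, Benjamini-Hochberg adjusted over 12522 genes, threshold 0.05. SE and 95% intervals come from that fit. A run on simulated counts checked the script. Genes named in the text were the members, Igfbp7, Arntl and Dbp, the genes beside Pcsk4 or overlapping a member, and from each list up to 4 past the threshold or else the 2 with the lowest p, plus the 3 genes most correlated with each member. Pcsk1, Pcsk2, Mbtps2, Insig1, Igf1, Igf2, Adcyap1, Alb, Serpinb8, Spring1, Pcsk1n, Scg5, Lipg, Spp1, the germ cell genes and 5 genes near Pcsk4 were named outside that rule, after their values were seen. The members and lists were chosen with earlier results of these data known. Listed symbols were matched by name or RefSeq synonym (GRCm38.p6). That table and GENCODE M21 differ from mm9, so no coordinates are given. Alternatives were other scalings, filters, DESeq2 1.42.0, limma-voom (limma 3.58.1), robust estimation, a block on replicate number, and libraries left out.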

Additional observations from a re-analysis of the deposited data

How the results depend on the processing

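Over all genes, 27 were called. The count was 133 without a filter, 427 by DESeq2, 68 with robust estimation, 1 with the replicate block, 1 with wild type replicate 1 and knockout replicate 2 both left out, and 3 to 36 with 1 library left out. Of the 6 members, 1 was called, and 0 with the replicate block or with those 2 libraries left out, and 0 to 1 with 1 library left out. Of the substrates and partners, 1 was called, against 3 without a filter, 4 by DESeq2 (Adamts13, Gbp2, Lipg and Lpl), 2 with robust estimation, 0 with the replicate block, 0 with the 2 libraries left out and 0 to 1 with 1 library left out. Within them the plasma proteins gave 1, then 2 without a filter, 2 by DESeq2, 0 with the block, 0 without the 2 libraries and 0 to 1 with 1 left out, the surface enzymes 0, then 1 without a filter, 1 by DESeq2 and 1 with robust estimation, and the inhibitors and partners 0, then 1 by DESeq2. The cause of these shifts was not tested. The fits with libraries left out also held fewer samples, and the part of that in the shifts was not tested. Same-numbered libraries of the genotypes deviated with correlations of -0.0827, -0.098 and -0.0413, which gave no sign that the numbers pair the samples. No library correlated best with its own number. With 3 libraries per genotype, these values cannot settle whether the samples were paired. The block ended the calls of Pcsk4 (log2 fold change 1.60, edgeR adjusted p = 0.0585) and Lpl (-0.92, edgeR adjusted p = 0.0585). With 1 library left out, the sign turned in genes that were never called. Scap ran from -0.1025 (without knockout replicate 1) to 0.2146 and was -0.0013 without wild type replicate 3. Reep6 ran from -0.0204 (without wild type replicate 3) to 0.185 and was -0.0008 without knockout replicate 2, and 2310011J03Rik ran from -0.2178 to 0.0429 (without knockout replicate 1). The Pcsk4 share in wild type libraries was 3.11% by exon length and 2.30% by coding length. Furin, Pcsk6 and Mbtps1, never called, also took both signs, and Furin did so with total count scaling (-0.0077) as well as with libraries left out. Pcsk4 counts ran from 155 in wild type replicate 1 to 767 in knockout replicate 2. Listed genes at a count of 0 were not detectable at the depth of these libraries.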

Other observations

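Genes farther along the chromosome from Pcsk4 were looked up after its values were seen. Of the 10 nearest protein-coding genes on each side in the RefSeq table, all 20 were in the files and 16 were tested. By edgeR 0 were called (3 at an unadjusted p under 0.05, namely Mum1, Plk5 and Cirbp, all higher in the knockout), and by DESeq2 0. Of all tested genes, 8.1% were higher at that unadjusted threshold. The log2 fold changes of the 16 ran from -0.15 to 0.64 with a median of 0.12, below the 1.61 of Pcsk4. Plk5, a polo-like kinase relative at under 3 CPM, gave the highest, from 1.33, 1.17 and 1.27 CPM in wild type to 1.99, 1.75 and 2.11 CPM in knockout replicates 1 to 3 (edgeR adjusted p = 0.225). Cirbp, a cold-inducible RNA-binding protein, was at 16.9, 13.4 and 16.3 CPM in wild type and 23.4, 25.2 and 15.5 CPM in knockout replicates 1 to 3, with overlap. Groups did not overlap for Mum1, Plk5, Mex3d and Rexo1, 4 of the 16, all with the knockout higher. Such a lack of overlap held for 10.7% of all tested genes with the knockout higher, and for 20.7% in either direction.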
